A study of Mus musculus with 28 samples.

Results

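The 7 genes described here, Rgs5, Cspg4, Mcam, Myh11, Kcnj8, Abcc9 and Des, are widely used to recognise pericytes and vascular smooth muscle cells. They were taken by name from a table of raw counts for 29068 genes, and all 7 were among the 18107 genes that passed the filter on low counts. The rule that took them used their names and no measured value, although earlier results of these data were known when they were proposed.

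Pericytes wrap capillaries and share a basement membrane with the endothelium, whereas vascular smooth muscle cells form the contractile coat of arterioles, venules and larger vessels. Together they are called mural cells. During skin repair, new capillaries grow into the granulation tissue, acquire mural cells through endothelial PDGF-BB and its receptor PDGFRβ, and are later pruned. Smooth muscle cells can also lower their contractile proteins when they leave the resting state.

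RNA was sequenced from the skin wound site of young adult MLKL+/+ mice on the C57BL/6J background, a wild-type line in which the wounds healed without treatment. Each wound was a full-thickness punch through the back skin down to the fascia, and the collected tissue held the scab, the wound bed and the epithelial edge. There were 28 libraries, 4 on each of Day0, Day3, Day5, Day7, Day10, Day12 and Day14, and the Day0 tissue served as the control. The study's methods name the earliest time point day 1, the day of injury, so that how long after wounding the Day0 tissue was taken is not settled by the sources used here. The mice were of both sexes, and whether the 4 libraries of a day came from 4 separate mice is not stated in the labels. The p-values therefore refer to libraries, and the test used for calls pooled their spread over the 7 days.

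Library totals were even, from 36706513 to 40655764 counts. Each of 8 keratinocyte markers was above 0 in every library, so the defining markers of the labelled tissue were present. The 4 Day0 libraries stood apart from one another, with a coefficient of biological variation of 26.5% against 5.77% to 10.8% on the later days. The summed level of 14 skeletal muscle markers was 45679 and 49035 CPM (counts scaled to library size) in Day0 libraries 1 and 4 and 28019 and 28562 CPM in libraries 2 and 3. The summed level of 10 fibroblast genes in libraries 1 to 4 of Day0 was 26147, 57530, 55285 and 15064 CPM. Library 4 of Day5 and, less so, library 4 of Day7 were low on long genes. Their medians for long minus short genes deviated from the mean of the day by -0.40 and -0.16 on the log2 scale, against 0.11 to 0.15 in the other Day5 libraries. For the main gene lists, counts against Day0 are also given with either pair of Day0 libraries as the only control. Printed calls of named genes that were lost with 1 pair are marked as such, and calls gained with a pair are given for some genes only. Both pairs were chosen after the values were seen, and the libraries of a pair were alike in muscle level. A fit with 1 pair leaves that difference out, so its calls are descriptions and not independent tests.

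The 7 genes did not move as 1 group. Rgs5 rose stepwise to Day10 and was back at the Day0 level on Day12. Cspg4 was highest on Day3 and Day14, Mcam was raised on Day3, Day5 and Day10, and Kcnj8 moved least. Myh11, Des and Abcc9 were below Day0 on every later day. A gene was called where edgeR's quasi-likelihood F-test gave p under 0.05 after Benjamini-Hochberg adjustment across the genes tested. Every adjusted p given is from that test unless another is named. The test used 1 spread per gene for all 7 days. Where the Day0 libraries spread more widely, its SE and p against Day0 understate that spread. The SD of log2 CPM was 0.65 on Day0 and 0.050 to 0.21 later for Des, and 0.37 and 0.072 to 0.25 for Cspg4. For Rgs5 and Abcc9, Day0 was not the day of widest spread. All 7 were called for any change over the 7 days, as were 89.5% of all genes.

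Against Day0, 7, 6, 5, 5, 5 and 7 of the 7 genes were called on Day3, Day5, Day7, Day10, Day12 and Day14. The shares called among all genes on those days were 66.6%, 59.5%, 50.4%, 50.4%, 47.3% and 62.7%, so the counts stood above the background by no more than a few genes. Higher genes numbered 3, 3, 2, 2, 1 and 3, beside backgrounds of 31.8%, 29%, 25.6%, 23.5%, 21.7% and 28.2%. Lower genes numbered 4, 3, 3, 3, 4 and 4, beside 34.8%, 30.6%, 24.8%, 26.9%, 25.6% and 34.5%. Genes whose 4 libraries all lay on 1 side of the 4 Day0 libraries numbered 7, 5, 4, 5, 4 and 5, beside 56.8%, 46.1%, 39.2%, 41.4%, 38.7% and 50.7% of all genes. By the study's own rule of an absolute log2 fold change over 1.5, 1, 1, 2, 0, 2 and 2 were past it, beside 18.9%, 13.9%, 9.4%, 9.47%, 7.39% and 14%. These 6 comparisons share the Day0 libraries. With only Day0 libraries 2 and 3 as the control, 7, 7, 6, 5, 6 and 7 genes were called, and with only libraries 1 and 4, 7, 5, 5, 6, 4 and 6.

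**Figure D1:**
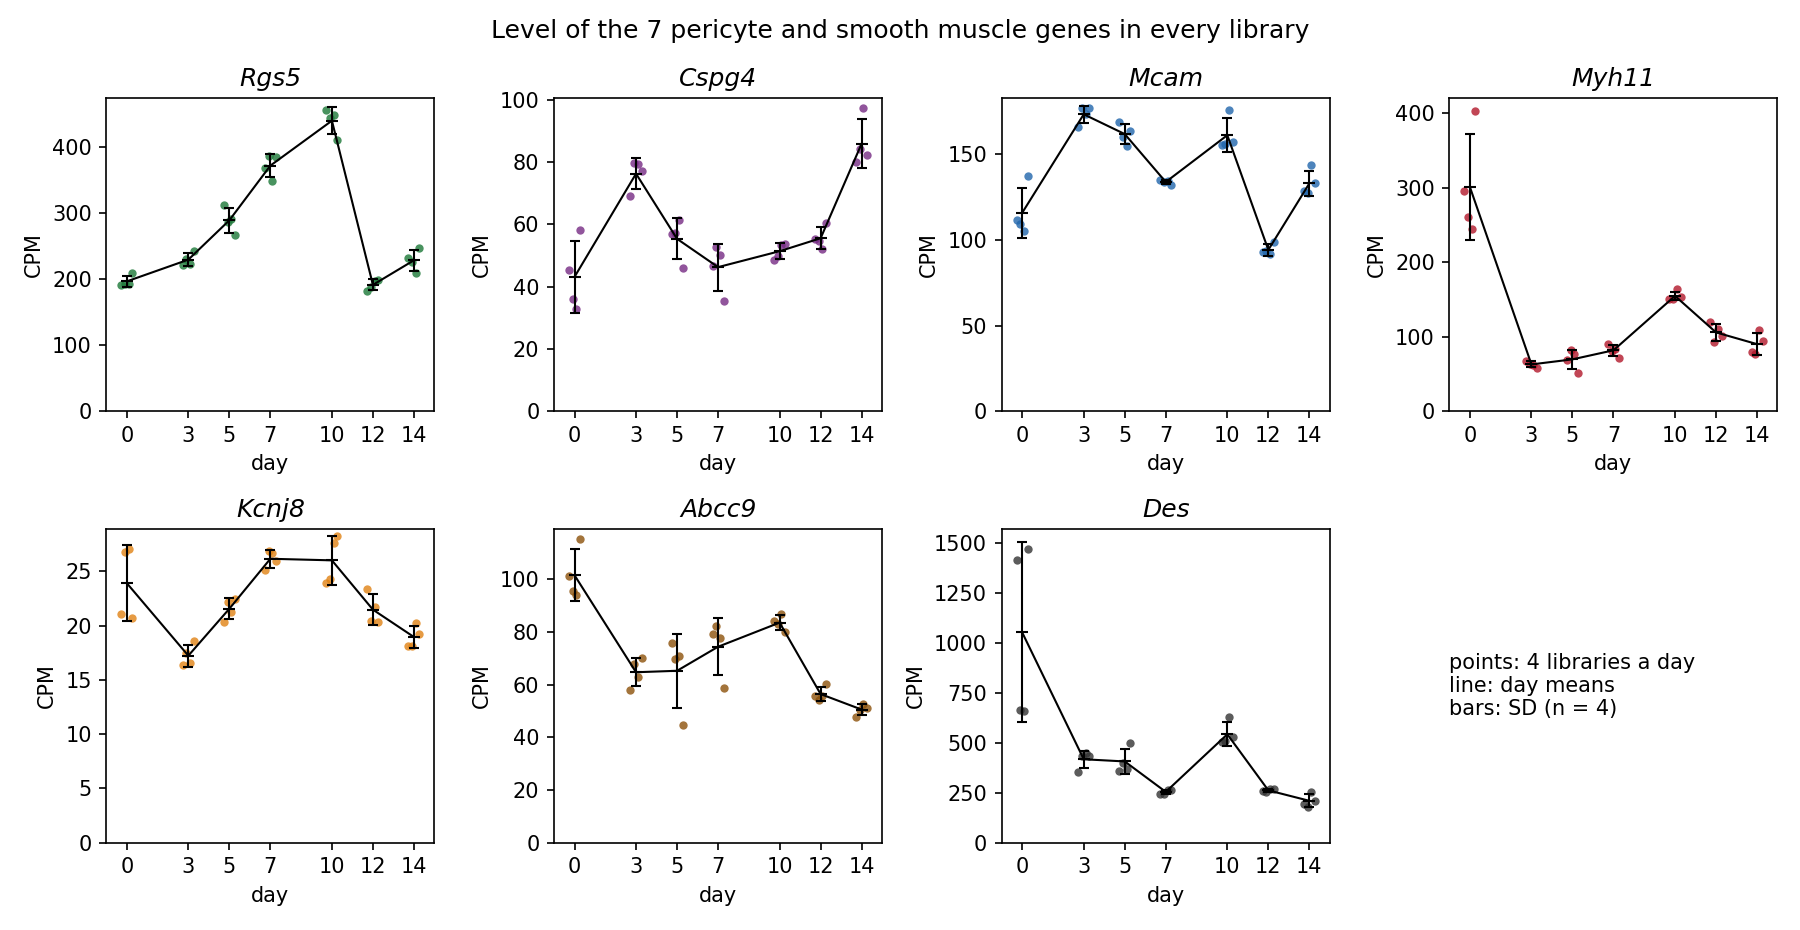
CPM of each gene on a linear axis from 0 against the sampled day, with 4 libraries a day as points, the day mean as a line and the SD as bars (n = 4). Rgs5 climbs from a mean of 197 on Day0 to 439.5 on Day10, while Myh11 drops from 301 to 62.9 by Day3 and the 4 Day0 libraries of Des split into 2 pairs.

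In the steps between sampled days, the broadest move was from Day10 to Day12, when 6 of the 7 genes fell and none rose, beside backgrounds of 20.7% lower and 18.7% higher. The median log2 fold change of the 7 genes in that step was -0.57, against -0.02 over all genes tested. Markers of other cell types fell in the same step, 11 of 12 endothelial (median -0.61), 7 of 8 adipocyte (median -0.39), 11 of 14 skeletal muscle (median -0.44) and 5 of 8 leukocyte markers (median -0.43), and their part in the result was not tested. Keratinocyte markers did not follow, with 5 of 8 higher and 1 lower (median 0.68), nor did those of Schwann cells, with 2 of 8 higher and 2 lower, and of 10 fibroblast genes 3 fell. From Day7 to Day10, 4 genes rose and none fell, with backgrounds of 14.3% and 18%. From Day12 to Day14, 3 rose and none fell, with backgrounds of 19.9% and 25.3%. The earlier steps were mixed. From Day3 to Day5, 2 rose and 1 fell, beside 12.9% and 11.4%, and from Day5 to Day7, 2 rose and 2 fell, beside 13.9% and 14.6%. In either direction, 24.3%, 28.5%, 32.3%, 39.4% and 45.2% of all genes were called in the 5 steps in order of time, beside 3, 4, 4, 6 and 3 of the 7 genes. In bulk tissue, fewer cells of a type and less RNA per cell cannot be told apart.

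**Figure D2:**
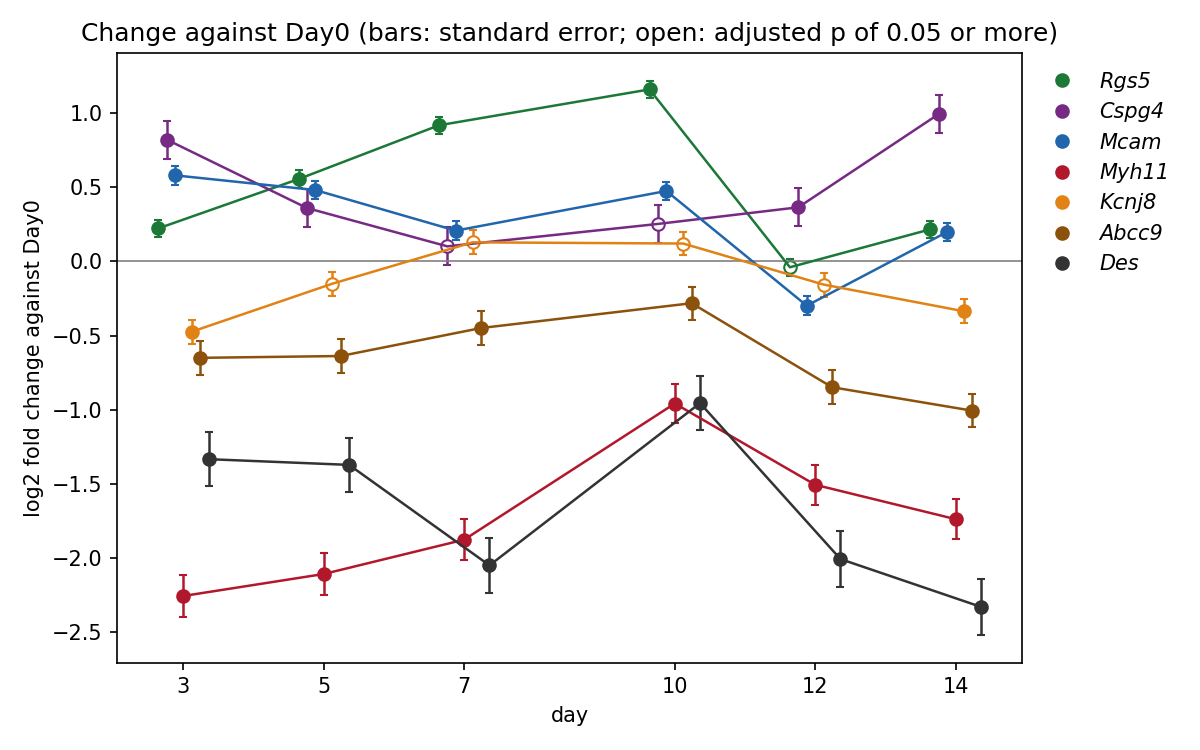
The log2 fold change against Day0 of each gene by day, with its standard error as bars. Filled points have an adjusted p under 0.05, and open points do not. Rgs5 reaches 1.16 on Day10, Cspg4 0.99 on Day14, and Myh11 -2.26 on Day3, and all later-day points of Myh11, Des and Abcc9 lie below 0.

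Rgs5 (chromosome 1, 169655501 to 169695813, GRCm38.p6) encodes a small protein that speeds the switching off of G proteins downstream of vasoconstrictor receptors, and it is among the most specific transcripts of pericytes. Rgs5 was at 191, 193, 193 and 209 CPM in Day0 libraries 1 to 4. It was at 222, 231, 223 and 242 CPM on Day3 and at 312, 286, 291 and 266 CPM on Day5. These sets did not overlap, each day standing above the one before.

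The rise went on to 368, 386, 349 and 384 CPM on Day7 and to 456, 444, 448 and 409.7 CPM on Day10, again without overlap. On Day12 the 4 libraries were at 181, 188, 197 and 199 CPM, and on Day14 at 232, 225, 209 and 248 CPM. The Day12 libraries overlapped those of Day0, while the lowest Day14 library lay just under the highest of Day0. In the order of day means, Day10, Day7, Day5 and Day3 were each separate from the next, whereas Day3 overlapped Day14, Day14 overlapped Day0 and Day0 overlapped Day12.

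Rgs5 was 2.24-fold higher on Day10 than on Day0 (log2 fold change 1.16, SE 0.059, adjusted p = 4.15e-15). In 4 against 4 libraries, the exact two-sided permutation test gave p = 0.0286, the smallest that 70 splits allow. The fall from Day10 to Day12 was 2.30-fold (log2 fold change -1.20, SE 0.059, adjusted p = 9.41e-15). On Day14 Rgs5 was 1.16-fold above Day0 (adjusted p = 0.00196), although the permutation test gave p = 0.0571. On Day12 the difference from Day0 was -0.04 (SE 0.058, adjusted p = 0.611), and it was 0.11 when library totals alone set the scale. With only Day0 libraries 2 and 3, or only 1 and 4, the Day10 value was 1.19 or 1.14.

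Endothelial markers were also higher on Day3 to Day10 and fell from Day10 to Day12, but were highest on Day3 and Day5. Of 12 of them, 9, 9, 8, 7, 0 and 0 were higher than Day0 on Day3 to Day14 and 1, 0, 0, 0, 8 and 6 were lower. With Day0 libraries 2 and 3 only, 9, 9, 7, 7, 0 and 0 were higher and 2, 1, 1, 1, 8 and 7 lower, and with libraries 1 and 4 only, 11, 11, 8, 10, 1 and 2 were higher and 1, 0, 0, 0, 7 and 5 lower. Their summed level was 862 to 1091 CPM on Day0, 1403 to 1523 on Day3, 1382 to 1594 on Day5, 1134 to 1268 on Day7, 1181 to 1384 on Day10, 771 to 866 on Day12 and 752 to 874 on Day14. Pecam1 and Cdh5, junction proteins of the endothelium, were already 0.70 and 1.23 above Day0 on Day3 (log2). Per 100 CPM of the endothelial sum, Rgs5 stood at 17.7 to 24.2 on Day0, 14.9 to 15.9 on Day3, 17.9 to 19.9 on Day5, 27.5 to 33.9 on Day7 and 32.4 to 36.7 on Day10. It then stood at 22.2 to 24.4 on Day12 and 23.9 to 30.8 on Day14. The Rgs5 ratio was thus lower on Day3, and higher on Day7 and Day10, than in any Day0 library. This ratio, like every ratio of a gene to a marker sum given below, was chosen after the values were seen and was not tested.

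**Figure D3:**
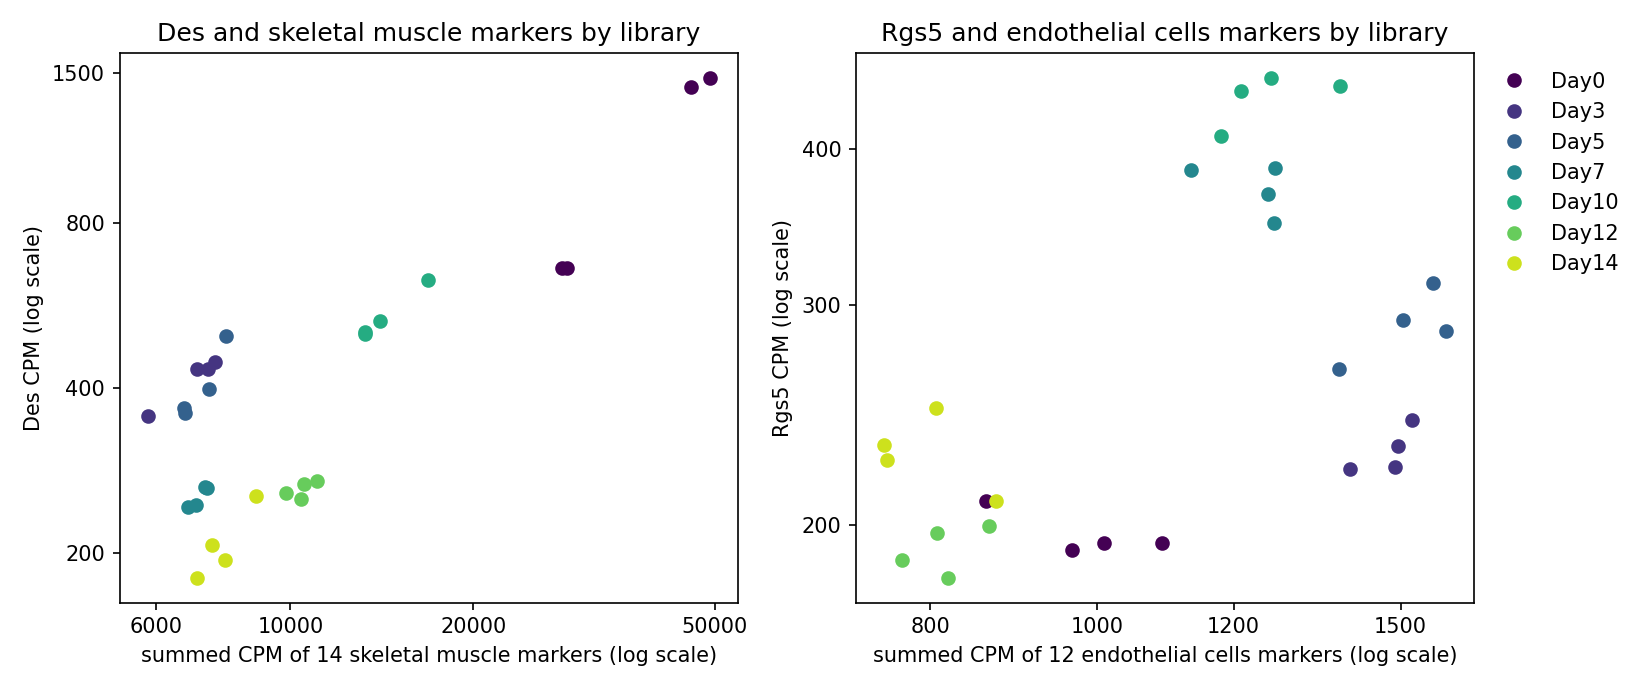
Both panels show 1 point per library on log scales, coloured by day. Left, Des CPM against the summed CPM of 14 skeletal muscle markers, in which the 4 Day0 libraries lie at the upper right in 2 pairs. Right, Rgs5 CPM against the summed CPM of 12 endothelial markers, in which Day3 and Day5 libraries lie far right and Day7 and Day10 libraries lie highest.

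Other small RGS proteins did not follow one course. Among the 9 genes of this group, Rgs5 included, 5, 5, 5, 4, 1 and 2 were higher than Day0 on Day3 to Day14 and 2, 1, 0, 1, 3 and 6 were lower. With Day0 libraries 1 and 4 only, 7, 6, 6, 5, 2 and 2 were higher and 1, 1, 1, 1, 1 and 3 lower, and with libraries 2 and 3 only, 5, 5, 4, 5, 1 and 2 were higher and 2, 1, 1, 1, 3 and 6 lower. Rgs1, found mainly in lymphocytes, was higher on all 6 days, by 1.28 to 1.84 (log2). On Day3 Rgs16 rose by 1.33, Rgs2 by 1.01 and Rgs3 by 0.28, and on Day14 they fell, by 0.65, 0.20 and 0.23, of which the Rgs2 and Rgs3 falls were not called with Day0 libraries 1 and 4 only (0.03 and -0.07). Rgs4, which pericytes also express, fell on Day3 (-0.32), Day5 (-0.27), Day12 (-0.41) and Day14 (-0.60), of which only the Day14 call held with Day0 libraries 2 and 3 only. Rgs18, a platelet and myeloid gene, fell by 1.70 on Day10, by 0.76 on Day12 and by 2.18 on Day14. Its Day12 call was lost with libraries 1 and 4 only (0.19). On Day3, Day5 and Day7 the 2 pairs gave opposite calls for Rgs18. It was lower with libraries 2 and 3 (-0.77, -0.84 and -0.77) and higher with libraries 1 and 4 (0.78, 0.67 and 0.72). Rgs8 and Rgs13 had mean levels of at most 0.326 and 0.518 CPM on any day, with Rgs8 called higher on Day7 and Rgs13 lower on Day3 and Day14. The Rgs8 call was lost with Day0 libraries 2 and 3 only, and both Rgs13 calls with libraries 1 and 4 only.

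The bases upstream of Rgs5 and of Des, which lay on opposite sides of Day0 on Day3 to Day10, follow as RefSeq gives them for GRCm38.p6. Each run holds the 250 bases before the annotated start of the gene, on the plus strand, for Rgs5 at chr1:169655251-169655500 and for Des at chr1:75360042-75360291. Capitals mark the E-box CAGCTG, the letters bound by muscle bHLH factors.
Rgs5: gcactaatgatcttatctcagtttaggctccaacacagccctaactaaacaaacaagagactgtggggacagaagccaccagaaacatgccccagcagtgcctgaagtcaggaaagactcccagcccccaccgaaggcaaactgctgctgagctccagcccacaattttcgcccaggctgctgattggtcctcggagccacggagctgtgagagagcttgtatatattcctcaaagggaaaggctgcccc
Des: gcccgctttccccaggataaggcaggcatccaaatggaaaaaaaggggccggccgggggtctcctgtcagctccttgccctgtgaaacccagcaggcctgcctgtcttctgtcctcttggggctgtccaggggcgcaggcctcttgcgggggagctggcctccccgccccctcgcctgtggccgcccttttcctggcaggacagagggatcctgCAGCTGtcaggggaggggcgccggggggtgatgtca
The upstream bases were found for 6 of the 7 genes, all but Myh11. CAGCTG, searched on both strands, began 36 bases before the start of Des and 27 bases before that of Abcc9, where the window overlaps an exon of another annotated Abcc9 transcript, and it was absent from this window of Rgs5, Cspg4, Mcam and Kcnj8. It occurs in 13% of 32851 RefSeq promoter windows of the same length. The serum response factor motif known as the CArG box and the MEF2 site, which occur in 1.47% and 0.508% of the windows, matched in none of the 6. These matches are descriptions of the letters in these windows.

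Cspg4 (chromosome 9, 56865104 to 56899870) encodes NG2, a large membrane proteoglycan of pericytes that binds basement membrane collagens and co-operates with growth factor receptors. It is also made by glial precursors and some skin stem cells. Cspg4 stood at 45.5, 36.0, 32.8 and 58.3 CPM in the 4 Day0 libraries. On Day3 it was at 69.0, 79.7, 79.4 and 77.0 CPM, and all 4 lay above Day0.

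The next days were lower, with 56.9, 57.3, 61.4 and 45.9 CPM on Day5 and 46.7, 52.7, 50.3 and 35.5 CPM on Day7. Library 4 was the lowest in both sets. On Day10 the level was 48.6, 49.9, 53.3 and 53.9 CPM, and on Day12 it was 55.3, 54.6, 52.1 and 60.3 CPM. On Day14 it was 80.1, 84.2, 97.3 and 82.3 CPM, above every library of the other days. Day14 and Day3 were each separate from the next lower day, while Day12, Day5, Day10, Day7 and Day0 overlapped in turn.

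Cspg4 was 1.77-fold higher than Day0 on Day3 (log2 fold change 0.82, SE 0.13, adjusted p = 2.56e-06) and 1.99-fold higher on Day14 (0.99, SE 0.13, adjusted p = 1.40e-07). The rise from Day12 to Day14 was 0.63 (SE 0.13, adjusted p = 2.10e-04). It fell from Day3 to Day5 (-0.46, SE 0.13, adjusted p = 0.0082). The Day5 and Day12 values against Day0, 0.36 and 0.37, were called, but they were 0.10 and 0.11 and no longer called with Day0 libraries 1 and 4 only. With libraries 2 and 3 only, Cspg4 was called higher on Day7 (0.43, adjusted p = 0.00204) and Day10 (0.58, adjusted p = 6.59e-05), against -0.17 and -0.01 with libraries 1 and 4. The Day5 and Day12 values were also not called when Day0 library 2 or library 3 was left out (adjusted p from 0.0774 to 0.0999), and the Day12 value was not called without Day12 library 4 (adjusted p = 0.0619). Without Day0 library 4, Cspg4 was called higher on Day7 (0.28, adjusted p = 0.0382) and Day10 (0.44, adjusted p = 0.00172) as well. Without Day5 and Day7 library 4, Cspg4 was at 0.44 and 0.21 on those days. Schwann cell and glial markers, which could share this gene, moved otherwise. The sum of 8 of them was 604 to 997 CPM on Day0 and 187 to 196 CPM on Day3, and their part in the Cspg4 level was not tested. All 8 adipocyte markers rose from Day12 to Day14 (median 0.58), as Cspg4 did. On Day3 their sum was 5009 to 6246 CPM against 2708 to 3663 CPM on Day0, with 3 markers higher and 3 lower. From Day3 to Day5, when Cspg4 fell, 1 was higher and 1 lower. The part of adipocytes was likewise not tested.

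Mcam (chromosome 9, 44134658 to 44142727) encodes CD146, an adhesion receptor of pericytes, smooth muscle cells and endothelium that binds laminin with the α4 chain. Mcam was at 111, 109, 105 and 137 CPM on Day0. It was at 166, 177, 173 and 177 CPM on Day3 and at 168, 160.0, 154 and 164 CPM on Day5. Every library of these 2 days lay above Day0.

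On Day7 the 4 libraries were nearly equal, at 135, 134, 134 and 132 CPM. They were at 155, 156, 176 and 157 CPM on Day10 and at 92.6, 93.4, 91.5 and 98.9 CPM on Day12. All 4 of Day12 lay below Day0. On Day14 they were at 128, 127, 143 and 133 CPM. In the order of means, Day3, Day5 and Day10 overlapped in turn, Day10 stood above Day7, Day7, Day14 and Day0 overlapped in turn, and Day0 stood above Day12.

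Mcam was 1.5-fold higher than Day0 on Day3 (0.58, SE 0.063, adjusted p = 5.18e-09) and 1.39-fold higher on Day10 (0.48, SE 0.063, adjusted p = 3.99e-07). From Day10 to Day12 it fell by 0.77 (SE 0.063, adjusted p = 1.15e-10), and from Day12 to Day14 it rose by 0.50 (SE 0.063, adjusted p = 3.90e-07). On Day12 it was below Day0 by 1.23-fold (adjusted p = 3.13e-04). The Day7 and Day14 values against Day0 were small, 0.21 and 0.20, and their libraries overlapped. The Day7 value was 0.10 and not called with Day0 libraries 1 and 4 only. Per 100 CPM of the endothelial sum, Mcam stood at 10.0 to 15.9 on Day0, 11.6 to 11.8 on Day3, 10.0 to 11.8 on Day5, 10.5 to 11.6 on Day7, 12.3 to 13.3 on Day10, 11.3 to 12.1 on Day12 and 16.4 to 17.1 on Day14. The Day3 to Day12 ratios lay within the Day0 range, and 11 of 12 endothelial markers fell with Mcam from Day10 to Day12. Their part in the Mcam level was not tested. Of 8 adipocyte markers, 7 fell from Day10 to Day12 and all 8 rose from Day12 to Day14 (median 0.58), as Mcam did. In the other 2 steps in which Mcam was called they did not follow. From Day5 to Day7, when Mcam fell by 0.27, 2 were higher and 1 lower, and from Day7 to Day10, when Mcam rose by 0.27, 1 was higher and 3 lower. Their summed level was 3831 to 4095 CPM on Day10, 2771 to 2941 CPM on Day12 and 4819 to 4910 CPM on Day14, and the part of adipocytes was likewise not tested.

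Of 12 laminins, collagens and other partners that NG2 and CD146 bind, 5, 9, 8, 9, 8 and 7 were higher than Day0 on Day3 to Day14 and 2, 1, 1, 1, 1 and 4 were lower. Their median log2 fold change was 0.02 on Day3, 0.79 on Day5, 1.00 on Day7, 0.97 on Day10, 0.62 on Day12 and 0.38 on Day14. Over all genes it lay between -0.06 and 0.00. With Day0 libraries 2 and 3 only, 6, 9, 9, 10, 9 and 6 were higher and 4, 1, 1, 1, 2 and 3 lower, and with libraries 1 and 4 only, 7, 9, 9, 9, 7 and 8 were higher and 3, 3, 3, 2, 2 and 2 lower. The median was 0.35 or 0.43 on Day3 and 0.15 or 0.63 on Day14 with these pairs, so that the value near 0 on Day3 held with neither. Lama4, the laminin chain bound by CD146, rose by 0.60, 0.76, 0.52 and 0.55 on Day3 to Day10, was at -0.07 on Day12 and fell by 0.33 on Day14, a call lost with Day0 libraries 1 and 4 only (-0.02). Nid2, a laminin linker, rose by 0.94 to 1.71 over the 6 days, Col4a2 by 0.66 to 1.53 and Lamb1 by 0.98 to 1.35. Lamb2, a chain of mature vessel and muscle laminins, fell on all 6 days, by 0.67 to 1.04. Lama5 rose late, by 0.39, 0.52 and 0.94 on Day10, Day12 and Day14, of which only the Day14 call held with libraries 1 and 4 only (0.04 and 0.18 on Day10 and Day12). With that pair Lama5 was called lower on Day3, Day5 and Day7 (-0.47, -0.62 and -0.60). Lgals3, a galectin that binds NG2, was called on Day14 only (-0.38), but it was at 0.05 and not called with libraries 2 and 3. On Day3 to Day12 it was called higher with libraries 2 and 3 and lower with libraries 1 and 4, so that no direction can be given.

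Kcnj8 and Abcc9 encode the pore, Kir6.1, and the sulfonylurea receptor, SUR2, of the ATP-sensitive potassium (KATP) channel of vascular muscle and pericytes, whose opening relaxes the vessel. They are neighbours on chromosome 6, Kcnj8 at 142564837 to 142571614 and Abcc9 at 142587862 to 142702766, 16247 bases apart with 0 protein-coding genes between them. Abcc9 is also made in heart and skeletal muscle.

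Kcnj8 had the lowest CPM of the 7 genes. On Day0 it was at 21.1, 26.7, 27.1 and 20.7 CPM, lower in the libraries with more muscle RNA. On Day3 it was at 16.4, 17.5, 16.5 and 18.5 CPM, below all Day0 libraries. It was at 20.3, 22.2, 21.2 and 22.5 CPM on Day5 and at 25.1, 26.9, 26.7 and 25.9 CPM on Day7, where the sets did not overlap. The later libraries were at 23.9, 24.3, 27.6 and 28.3 CPM on Day10, 23.4, 20.4, 21.7 and 20.3 CPM on Day12 and 18.2, 18.1, 20.2 and 19.3 CPM on Day14. Ordered by mean, Day7, Day10, Day0, Day5 and Day12 overlapped in turn, Day12 stood above Day14, and Day14 overlapped Day3.

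Kcnj8 was 1.39-fold lower than Day0 on Day3 (-0.47, SE 0.082, adjusted p = 1.16e-05) and 1.26-fold lower on Day14 (-0.34, SE 0.081, adjusted p = 7.28e-04). It rose from Day3 to Day5 (0.32, adjusted p = 0.00419) and from Day5 to Day7 (0.28, adjusted p = 0.00944), and it fell from Day10 to Day12 (-0.28, adjusted p = 0.00712). Only the Day3 call held with either pair of Day0 libraries as the control, at -0.64 with libraries 2 and 3 and -0.23 with libraries 1 and 4. The Day14 value with libraries 1 and 4 was -0.07, and on Day5, Day7, Day10 and Day12 the sign turned with the pair. With libraries 2 and 3, Kcnj8 was called lower on Day5 (-0.32, adjusted p = 9.37e-04) and Day12 (-0.32, adjusted p = 0.00101), against 0.06 and 0.05 with libraries 1 and 4. On Day7 and Day10 it was -0.04 and -0.05 against 0.32 and 0.32. Without Day0 library 4, Kcnj8 was called lower on Day5 (adjusted p = 0.0341) and Day12 (adjusted p = 0.0413), and without Day0 library 1 on Day5 (adjusted p = 0.0457).

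Abcc9 was at 101, 95.4, 94.1 and 115 CPM on Day0. It was at 58.0, 67.9, 62.8 and 70.1 CPM on Day3 and at 75.9, 69.7, 70.9 and 44.5 CPM on Day5. All were below Day0, and Day5 library 4 was the lowest of the 28. On Day7 it was at 79.1, 82.3, 77.6 and 58.6 CPM, on Day10 at 84.2, 83.1, 86.9 and 80.0 CPM, on Day12 at 55.5, 54.1, 55.6 and 60.4 CPM, and on Day14 at 47.6, 50.4, 52.8 and 51.3 CPM. Day0 stood above Day10 and Day12 stood above Day14, while Day10, Day7, Day3, Day5 and Day12 overlapped in turn.

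Abcc9 fell against Day0 on all 6 days, least on Day10 (-0.28, SE 0.11, adjusted p = 0.0375) and most on Day14 (-1.01, SE 0.11, adjusted p = 1.29e-08). The Day10 call was lost with Day0 libraries 2 and 3 only (-0.18, adjusted p = 0.237) and when Day0 library 1 or 4 or any Day10 library was left out (adjusted p from 0.0504 to 0.125). From Day10 to Day12 Abcc9 fell by 0.57 (SE 0.11, adjusted p = 1.87e-04). All 14 skeletal muscle markers were also lower than Day0 on each later day, and Abcc9 was highest in Day0 libraries 1 and 4. Per 100 CPM of the skeletal muscle sum, Abcc9 stood at 0.222 to 0.340 on Day0, 0.837 to 0.997 on Day3 and 0.516 to 1.18 over the later days. The part of muscle RNA in the Abcc9 result was not tested. Its transcript, about 8063 bases by the ratio of the deposited values, is long, and library 4 of Day5 and Day7 lay low on long genes. Without these 2 libraries the values on Day5 and Day7 were -0.49 and -0.35, against -0.64 and -0.45 with them, and both remained called.

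On the FPKM scale, which divides by transcript length as well as depth, the 2 subunits were close. Mean Kcnj8 against Abcc9 was 9.17 ± 1.36 and 12.3 ± 1.19 FPKM on Day0, 6.35 ± 0.33 and 7.54 ± 0.57 on Day3, 10.4 ± 0.81 and 10.5 ± 0.28 on Day10, and 7.93 ± 0.31 and 6.69 ± 0.29 on Day14 (SD, n = 4). Kcnj11, the pore of the KATP channel of skeletal and cardiac muscle and of β-cells, was at 8.45 ± 2.38 FPKM on Day0 and 1.28 to 3.08 on the later days. It fell by 1.51 to 2.73 (log2), all called. Abcc8, the β-cell receptor subunit, was at most at 0.470 CPM in the day means and was called lower on Day12, a call held with neither pair of Day0 libraries (adjusted p = 0.0517 and 0.0725). Of the 4 subunits, 3, 2, 2, 2, 3 and 3 were lower on Day3 to Day14 and none was higher. Against Day0 libraries 2 and 3 only, 3, 3, 2, 1, 3 and 3 were lower, and with libraries 1 and 4 only, 3, 2, 2, 2, 2 and 2 were lower and Kcnj8 was called higher on Day7 and Day10.

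**Figure D4:**
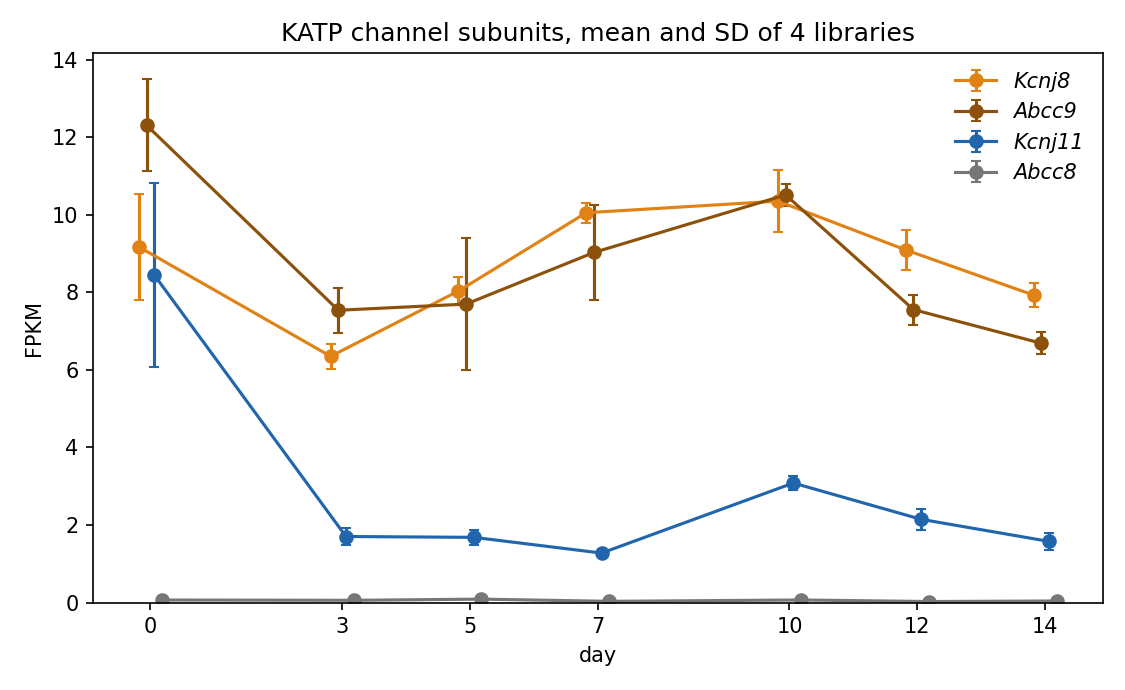
Mean FPKM of the 4 KATP channel subunits by day, with the SD of 4 libraries as bars, on a linear axis from 0. Kcnj8 and Abcc9 stay between 6.35 and 12.3 FPKM, Kcnj11 drops from 8.45 on Day0 to 1.28 on Day7, and Abcc8 lies near 0.

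Myh11 (chromosome 16, 14194527 to 14292188) encodes the smooth muscle myosin heavy chain, the motor of contraction and a late marker of mature smooth muscle. Besides vessel walls, the arrector pili muscle of hair follicles makes it. Myh11 was at 295, 261, 244 and 403 CPM on Day0. On Day3 it was at 67.7, 63.4, 62.5 and 58.0 CPM, and on Day5 at 68.4, 82.2, 76.4 and 51.9 CPM. No later library of any day reached the lowest of Day0.

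Myh11 then stood at 90.2, 81.2, 84.1 and 72.0 CPM on Day7 and at 151, 151, 164 and 153 CPM on Day10. Day10 lay above all of Day12, at 119, 92.4, 109.9 and 102 CPM. On Day14 the libraries were at 79.3, 76.8, 109.5 and 94.9 CPM. In the order of means, Day0, Day10 and Day12 were separate, and Day12, Day14, Day7, Day5 and Day3 overlapped in turn.

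Myh11 was 4.78-fold lower than Day0 on Day3 (-2.26, SE 0.14, adjusted p = 5.51e-14), 1.94-fold lower on Day10 (-0.96, SE 0.13, adjusted p = 9.68e-07) and 3.34-fold lower on Day14 (-1.74, SE 0.14, adjusted p = 1.45e-11). It rose from Day7 to Day10 by 0.92 (SE 0.13, adjusted p = 5.42e-06) and fell from Day10 to Day12 by 0.55 (SE 0.13, adjusted p = 0.00164). All 6 calls against Day0 held with either pair of Day0 libraries. The Day3 value was -2.0 with libraries 2 and 3 and -2.42 with libraries 1 and 4.

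Most contractile smooth muscle genes were lower on the same days. Some of them, such as Synm, are also made by skeletal muscle. Of 20 such genes, 18, 19, 16, 12, 16 and 15 were lower than Day0 on Day3 to Day14 and 1, 1, 2, 2, 2 and 3 were higher. Their median log2 fold change was -2.0, -1.48, -1.27, -0.49, -0.83 and -1.16. With Day0 libraries 2 and 3 only, 18, 17, 14, 10, 11 and 12 were lower and 2, 1, 3, 5, 4 and 5 higher, and with libraries 1 and 4 only, 18, 19, 17, 17, 16 and 16 were lower and 1, 1, 1, 2, 2 and 3 higher. The Day10 median was -0.23 with libraries 2 and 3 and -0.70 with libraries 1 and 4. Cnn1, calponin of the thin filament, fell on all 6 days, by 2.12 on Day3 and 0.66 on Day10, and Myocd, the co-activator that drives the contractile genes, by 2.01 and 0.91. Both Day10 calls were lost with libraries 2 and 3 only (-0.26 and -0.05), as was that of Myocd on Day12 (-0.58). Lmod1, an actin nucleator of smooth muscle, and Itga8, an integrin of contractile cells, fell by 2.65 and 2.75 on Day3.

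Acta2, Tagln, Smtn and Cald1 were called higher on at least 1 later day. Acta2, smooth muscle actin, fell by 0.90 on Day3 and by 0.37 on Day5, rose by 0.36 on Day7 and was at 0.09, -0.22 and 0.15 on the later days. The Day5 call was lost with Day0 libraries 2 and 3 only (0.06) and the Day7 call with libraries 1 and 4 only (0.03). On Day10 and Day12 Acta2 was called higher with libraries 2 and 3 (0.52 and 0.21) and lower with libraries 1 and 4 (-0.24 and -0.53). Tagln, transgelin, fell by 1.12 on Day3 and rose by 0.78 on Day14. On Day7 and Day10 Tagln was called higher with libraries 2 and 3 (0.46 and 0.51) and lower with libraries 1 and 4 (-0.41 and -0.36). Smtn, smoothelin, fell by 0.66 on Day3 and rose by 0.89 on Day14, and Cald1, caldesmon, rose on all 6 days, by 0.27 to 0.90. Srf, the partner of myocardin, lay between -0.42 and 0.08. Skeletal muscle RNA fell on the same days as Myh11. Per 100 CPM of the skeletal muscle sum, Myh11 stood at 0.646 to 0.933 on Day0, 0.792 to 1.16 on Day3, 0.663 to 1.14 on Day5 and 0.997 to 1.33 on Day7. It then stood at 0.971 to 1.14 on Day10, 0.889 to 1.22 on Day12 and 1.02 to 1.28 on Day14. Markers of Schwann cells, which lie in the same tissue, also fell, 7 of 8 on Day3. Their part in the Myh11 result was not tested.

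Of the non-muscle myosins, Myh9, found in most cells, rose on all 6 days, by 0.88 on Day3 and 0.28 on Day10. Myh10, its relative in fibroblasts and other stromal cells, rose by 0.95 on Day7, 0.79 on Day10 and 0.53 on Day12. The Myh9 call on Day10 was lost with Day0 libraries 1 and 4 only (0.23, adjusted p = 0.0507), and the Myh10 call on Day12 with libraries 2 and 3 only (0.12). On Day3 and Day5 Myh10 was called lower with libraries 2 and 3 (-0.71 and -0.26) and higher with libraries 1 and 4 (0.33 and 0.74). Myh14, an epithelial form, fell as Myh11 did on Day3, Day5, Day7 and Day10, by 1.89, 1.79, 1.32 and 1.42, and rose by 0.38 on Day12 and 0.57 on Day14, of which the Day12 call was lost with libraries 1 and 4 only (0.15).

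**Figure D5:**
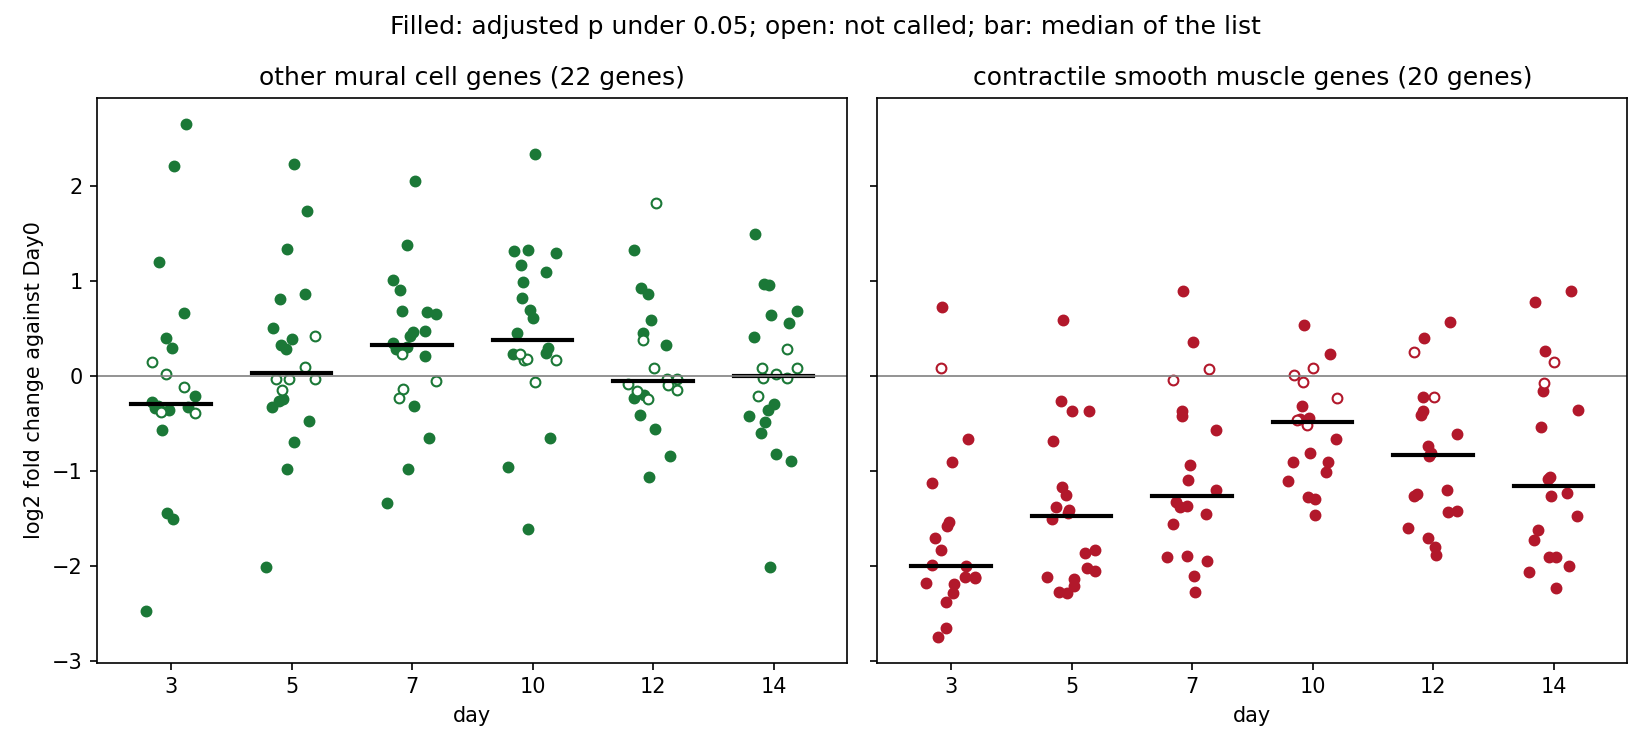
The log2 fold change against Day0 of 22 other mural cell genes (left) and 20 contractile smooth muscle genes (right) by day, with filled points for an adjusted p under 0.05, open points for the rest and a bar at the median. The contractile median is -2.0 on Day3 and -0.49 on Day10, while the other mural genes spread to both sides, with medians from -0.29 on Day3 to 0.38 on Day10.

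Des (chromosome 1, 75360292 to 75368579) encodes desmin, the intermediate filament that ties contractile units together in smooth, cardiac and skeletal muscle and is also found in pericytes. It had the highest level per transcript length (FPKM) of the 7 genes on every day. Des was at 1414, 664, 661 and 1471 CPM in Day0 libraries 1 to 4, in the same 2 pairs as the skeletal muscle markers. On Day3 it was at 356, 433, 447 and 434 CPM, and on Day5 at 361, 399, 368 and 499 CPM. The Day3 and Day5 libraries all lay below Day0.

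On Day7 Des was at 243, 245, 264 and 265 CPM. It was at 502, 507, 630.4 and 531 CPM on Day10 and at 258, 251, 267 and 270.5 CPM on Day12. Day10 stood above every other later day. On Day14 it was at 194, 181, 255 and 207 CPM, which overlapped Day7. Ordered by mean, Day0 stood above Day10 and Day10 above Day3, Day3 overlapped Day5, Day5 stood above Day12, and Day12, Day7 and Day14 overlapped in turn.

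Des was 2.52-fold lower than Day0 on Day3 (-1.33, SE 0.18, adjusted p = 3.46e-07), 1.94-fold lower on Day10 (-0.96, SE 0.18, adjusted p = 7.46e-05) and 5.03-fold lower on Day14 (-2.33, SE 0.19, adjusted p = 2.65e-11). It rose from Day7 to Day10 by 1.09 (SE 0.18, adjusted p = 3.11e-05) and fell from Day10 to Day12 by 1.05 (SE 0.18, adjusted p = 3.40e-05). The size against Day0 depended on which Day0 libraries were used. On Day3 it was -0.66 with libraries 2 and 3 and -1.74 with libraries 1 and 4, and on Day10 it was -0.29 (adjusted p = 0.0309) and -1.41.

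All 14 skeletal muscle markers were lower than Day0 on each later day, as they were with Day0 libraries 1 and 4 only. With libraries 2 and 3 only, 12 were lower and 1 higher on Day10, 13 were lower on Day12 and all 14 on the other days. Acta1, Ckm and Mylpf, which encode skeletal actin, muscle creatine kinase and a myosin light chain, fell by 1.97, 2.38 and 2.23 on Day3. From Day7 to Day10 all 14 rose, and from Day10 to Day12 11 of 14 fell. Per 100 CPM of their sum, Des stood at 2.32 to 3.10 on Day0, 5.93 to 6.16 on Day3, 5.38 to 6.37 on Day5, 3.50 to 3.66 on Day7 and 3.74 to 3.82 on Day10. It then stood at 2.41 to 2.62 on Day12 and 2.5 to 2.90 on Day14. Relative to these markers Des was therefore higher on Day3 to Day10 than in any Day0 library, and on Day12 and Day14 within the Day0 range. The part of muscle RNA in the Des result was not tested.

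Of 6 intermediate filament genes and partners, Des included, 4, 4, 4, 4, 6 and 5 were lower than Day0 on Day3 to Day14 and 0, 1, 0, 1, 0 and 0 were higher. With Day0 libraries 2 and 3 only, 3, 3, 4, 3, 3 and 5 were lower and 2, 2, 2, 2, 0 and 1 higher, and with libraries 1 and 4 only, 5, 5, 5, 4, 6 and 6 were lower and none was higher. Synm, synemin, which co-assembles with desmin, fell by 1.46 to 2.28, Cryab, its chaperone, by 0.82 to 1.61, and Plec, the linker plectin, by 0.41 to 0.80, each on all 6 days. With Day0 libraries 2 and 3 only, Plec was called on Day7 and Day14 alone. Vim, vimentin of mesenchymal cells, rose by 0.38 on Day5 and fell by 0.36 on Day12 and 0.71 on Day14. Nes, nestin, was called higher on Day10 (0.61) and lower on Day12 (-0.47). Of these calls, the higher ones were lost with Day0 libraries 1 and 4 only (0.10 for Vim and 0.16 for Nes) and the Day12 ones with libraries 2 and 3 only (0.01 for Vim and 0.20 for Nes). On Day3, Day5, Day7 and Day14 the 2 pairs gave opposite calls for Nes. It was higher with libraries 2 and 3 (0.36, 0.62, 0.67 and 0.38) and lower with libraries 1 and 4 (-0.73, -0.50, -0.46 and -0.67).

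Other genes used to define mural cells behaved unevenly. Of 22 of them, 6, 9, 14, 14, 6 and 7 were higher than Day0 on Day3 to Day14 and 11, 7, 4, 3, 6 and 8 were lower. Set against Day0 libraries 2 and 3 only, 6, 7, 11, 14, 7 and 9 were higher and 11, 6, 4, 3, 8 and 11 lower, and with libraries 1 and 4 only, 6, 9, 11, 14, 6 and 9 were higher and 9, 7, 5, 3, 5 and 5 lower. From Day10 to Day12, 13 of the 22 fell and 2 rose. Pdgfrb, the receptor through which pericytes are recruited, rose by 0.30, 0.39, 0.46 and 0.61 on Day3, Day5, Day7 and Day10, was at 0.08 on Day12 and fell by 0.30 on Day14, a call lost with Day0 libraries 1 and 4 only (-0.18). Fibroblasts also make it, and of 10 fibroblast genes 2, 5, 6, 7, 5 and 3 were higher and 6, 1, 0, 1, 0 and 7 were lower on the same days. These counts depended on the Day0 libraries. With libraries 1 and 4 only, 5, 10, 10, 9, 10 and 3 were higher and 2, 0, 0, 0, 0 and 2 lower, and with libraries 2 and 3 only, 3, 4, 5, 5, 3 and 3 were higher and 7, 5, 3, 3, 4 and 7 lower. The part of fibroblasts in the Pdgfrb level was not tested. Notch3, the Notch receptor of vessel-wall cells, was called on Day3 only (-0.21), and not with Day0 libraries 2 and 3 only (-0.14).

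Some members of this list moved much further. Steap4, a metalloreductase, rose by 2.66 on Day3, from a mean of 146 CPM to 922 CPM, and by 1.74 on Day5. All 8 leukocyte markers were also higher on these days (medians 1.75 and 1.41), while of 8 adipocyte markers 3 were higher and 3 lower. The part of other cell types in the Steap4 level was not tested. Tbx18, a transcription factor of mural cells, rose on all 6 days, by 1.38 at most, although not on Day3 with Day0 libraries 2 and 3 only (0.17). Foxf2 was called higher on Day3 to Day10, though on none of these days with Day0 libraries 1 and 4 only, and with day means of 0.0596 CPM on Day0 and at most 0.314 CPM later, and no reads in some Day0 libraries, its fold change is not given. Foxc1, a transcription factor that hair follicle and other skin cells also use, fell by 2.48 on Day3 and was at -0.08 on Day12. Ndufa4l2, a mitochondrial protein of pericytes, fell on all 6 days, by 2.02 on Day14, and Gucy1a1, a subunit of the nitric oxide receptor, fell by 1.51 on Day3 and was at -0.06 on Day10.

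Of 19 genes by which endothelium and mural cells signal to each other, 11, 10, 12, 12, 4 and 3 were higher than Day0 on Day3 to Day14 and 3, 0, 0, 0, 6 and 12 were lower. With Day0 libraries 2 and 3 only, 10, 9, 12, 12, 5 and 3 were higher and 3, 2, 2, 4, 8 and 11 lower, and with libraries 1 and 4 only, 14, 14, 13, 14, 4 and 3 were higher and 3, 1, 1, 0, 6 and 10 lower. Pdgfb, the endothelial ligand of PDGFRβ, rose by 0.27, 0.60, 0.25 and 0.46 on Day3 to Day10 and was at -0.13 and -0.12 on Day12 and Day14. Its Day7 call was lost with Day0 libraries 1 and 4 only (0.11). Angpt2, which loosens mural contacts, rose by 1.15 on Day3 and 1.07 on Day10 and fell by 0.33 on Day14. Angpt1, the mural ligand of the same receptor, rose by 0.43 on Day3 and 0.57 on Day7, of which the Day3 call was lost with libraries 2 and 3 only (0.16). S1pr3, a sphingosine phosphate receptor, rose on all 6 days, by 0.73 to 1.87. Eng, the co-receptor endoglin, rose by 1.07 on Day3 and was at -0.13 on Day14. Jag1, a Notch ligand, fell by 0.42 on Day3, a call lost with libraries 2 and 3 only (-0.15), and rose by 1.36 on Day14. On Day7 Jag1 was called higher with libraries 2 and 3 (0.23) and lower with libraries 1 and 4 (-0.27). Ednra, the endothelin receptor, fell by 0.36 on Day3 and rose by 0.43 to 0.70 from Day7 on.

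Each of the 7 genes was also set beside all other genes by Pearson's r of log2 CPM over the 28 libraries, which share their days. The 3 closest to Rgs5 were Vash1 (r = 0.92), an endothelial angiogenesis inhibitor, Clec14a (0.92), an endothelial lectin, and Tnn (0.91), a tenascin. With day means removed, their r with Rgs5 was -0.04, 0.20 and 0.07, so that the likeness lay between days. The closest to Myh11 were Tmem164 (0.98), Mylk (0.98), the kinase of the myosin light chain, and Jph2 (0.98), a junctional membrane protein of muscle, with 0.91, 0.91 and 0.61 within days. Des was closest to Pdlim3 (0.97), a muscle Z-disc protein, Pbxip1 (0.97) and Fhl1 (0.97), with 0.94, 0.86 and 0.82 within days. Abcc9 was closest to Adcy9 (0.94), Man2a2 (0.93) and Sgcd (0.93), the latter a sarcoglycan of muscle, with 0.88, 0.90 and 0.89 within days. Mcam was closest to Pdk4 (0.92), Dgat1 (0.91) and Agpat1 (0.91), which act in fuel and lipid metabolism, with 0.77, 0.70 and 0.31 within days. Kcnj8 was closest to Copz2 (0.93), Dnm1 (0.92) and Dact1 (0.91), with 0.75, 0.63 and 0.69 within days. Cspg4 was closest to Eftud2 (0.94), Bysl (0.92) and Pom121 (0.91), with 0.71, 0.62 and 0.71 within days.

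Among the 7 genes themselves, r was highest between Abcc9 and Des (0.75), Abcc9 and Myh11 (0.72) and Myh11 and Des (0.69). It was 0.54 between Rgs5 and Mcam and 0.48 between the neighbours Kcnj8 and Abcc9. The lowest value, -0.77, was between Cspg4 and Kcnj8. These are descriptions over libraries that share days and depth.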

How the data were processed

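Skin wound RNA-seq in 28 libraries (7 days, 4 libraries each) was grouped by the time label. The authors deposited whole-number counts per gene and FPKM values for the same libraries, against mm10 (GRCm38). fastp and R 3.2.0 are named in the submitters' processing notes, and the aligner, counter, annotation and strand setting are not given in the sources used here. Counts without strand cannot separate overlapping antisense genes.

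The counts were fitted with edgeR 4.0.16 (R 4.3.3) using TMM scaling, filterByExpr (minimum count 10) and 1 quasi-likelihood model of 7 days with 21 residual degrees of freedom. Contrasts were 6 later days against Day0 and 5 steps between sampled days, two-sided, with Benjamini-Hochberg adjustment over 18107 genes. CPM are TMM-scaled, and log2 CPM carry a prior count of 2. The SE of a fold change is its absolute value over the square root of F. FPKM served levels between genes. Single genes were also compared by exact permutation. Scripts were tested on simulated data.

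The 7 genes and all gene lists were chosen with earlier results of these data known. All genes of the 4 pathway lists of up to 9 genes (KATP subunits, small RGS proteins, myosin II heavy chains, desmin partners) were named. From longer pathway lists the 3 highest and 3 lowest on Day5 were named, with Pdgfrb, Notch3, Acta2, Tagln, Cnn1, Myocd, Pdgfb, Angpt1, Angpt2, Lama4, Pecam1, Cdh5, Acta1, Ckm and Mylpf, and for each of the 7 genes the 3 most correlated genes. Other cell type markers were used as lists. Alternatives were other scalings and filters, DESeq2 1.42.0, limma 3.58.1, voom, 8 libraries only, a replicate block, other criteria and leaving out libraries.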

Additional observations from a re-analysis of the deposited data

Results flagged for a closer look

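In 49 sets of 4 libraries, 5 had 1 library whose gap to the nearest other took up more of the range than Dixon's critical value allows, where chance at 1 in 20 gives about 2.4. Rgs5 in Day0 library 4 was at 7.71 (log2 CPM), against 7.58 to 7.59 in the other 3. This is the Day0 library with the most skeletal muscle RNA. Without it Rgs5 on Day12 differed from Day0 by 0.0092 in place of -0.04, neither called. Mcam in Day10 library 3 was at 7.46, against 7.28 to 7.30. The same library had the highest endothelial and skeletal muscle sums of Day10, 1384 and 16848 CPM.

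Abcc9 in library 4 was at 5.48 on Day5, against 6.12 to 6.25, and at 5.87 on Day7, against 6.28 to 6.36. Both libraries were low on long genes, by -0.40 and -0.16 (log2), and the transcript length of Abcc9 implied by the deposited values was at percentile 85.5 of the genes. Des in Day3 library 1 was at 8.48, against 8.76 to 8.80, and that library had the lowest skeletal muscle sum of Day3, 5820 CPM against 7024 to 7509. The part of these values in the results was not tested.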

How the results depend on the processing

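Alternatives changed the scaling, filter, tool, criterion or libraries, and limma on FPKM changed the measure, scaling and tool together. Under the study's criteria (a log2 change beyond 1.5 in either direction, with p under 0.05 before adjustment), 1, 1, 2, 0, 2 and 2 of the 7 genes were called on Day3 to Day14 against Day0. Under the other alternatives the counts stayed within 1.5 times those reported. TMM factors shifted Day12 and Day14 against Day0 by 0.14 and 0.13 (log2). Uncalled values changed sign as follows. Rgs5 on Day12 against Day0 was 0.11 without composition normalization and 0.10 in limma on log2(FPKM + 1) and log2(FPKM + 0.1), and -0.059 to 0.0092 with 1 library left out. Kcnj8 from Day7 to Day10 was 0.042 without composition normalization and -0.049 to 0.033 with 1 library left out. With 1 library left out, Cspg4 on Day7 against Day0 ranged from -0.0071 to 0.28, Abcc9 from Day3 to Day5 from -0.074 to 0.16 and Des from Day3 to Day5 from -0.15 to 0.015. In alternatives chosen after seeing the data, Day0 libraries 2 and 3 only gave Kcnj8 -0.039 on Day7 and -0.047 on Day10. Day0 libraries 1 and 4 only gave Kcnj8 0.055 on Day5 and 0.054 on Day12, and Cspg4 -0.17 on Day7 and -0.012 on Day10. With the 8 libraries of the compared days only, calls were lost for Cspg4 on Day5 and Day12, Mcam on Day7 and Kcnj8 on Day14 (adjusted p from 0.0588 to 0.117). The Abcc9 call on Day10 was lost under upper quartile scaling, no composition normalization, limma and voom, and that of Kcnj8 from Day10 to Day12 without composition normalization (adjusted p = 0.0541). Calls were gained for Cspg4 on Day10 (adjusted p from 0.0305 to 0.0415) and Kcnj8 on Day5 (0.0356 to 0.0439) under upper quartile scaling, no composition normalization and limma, for Kcnj8 on Day10 under limma (0.045 and 0.0453) and for Kcnj8 from Day12 to Day14 without composition normalization (0.0406). The cause of these changes was not tested. With day means removed, same-numbered libraries of Day0 and each later day correlated by -0.07 to 0.05, over 0.1 in 0 of 24 pairs. Later days were not compared with one another in this way, so a link between their same-numbered libraries was not tested. With a replicate block, 7, 6, 5, 5, 5 and 7 genes were called and no call changed.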
